A study of Mus musculus with 20 samples.

Results

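The pyruvate dehydrogenase system was followed here through 10 genes: the kinases *Pdk1*, *Pdk2*, *Pdk3* and *Pdk4*, the phosphatases *Pdp1* and *Pdp2*, and the complex subunits *Pdha1*, *Pdhb*, *Dlat* and *Pdhx*. The genes were chosen by name, with earlier results of these data known. Shares of members set beside shares of all genes are therefore descriptive. Every probe annotated to one of the genes was taken, which gave 12 of the 25697 probes and 10 of the 16593 gene symbols on the array. *Pdp2* and *Pdhb* had 2 probes and each of the other 8 genes had 1.

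RNA of liver and of gastrocnemius muscle was measured in male mice carrying 1 deleted *Adck2* allele (*Adck2*+/-) and in WT mice, with 5 mice per genotype and tissue, all on a B6N background. Each of the 20 samples was hybridised to its own Illumina bead array, which reports, for every probe, a mean signal and a detection p-value taken from the negative-control beads. By their labels the mice were 3 years old and the RNA was labelled for Illumina arrays, whereas the methods of the study state an age in months and an Affymetrix chip. The deletion is constitutive and present in every tissue, several embryonic stem cell clones were obtained to make it, and the *Adck2* probe was not detected on enough arrays of either tissue to check the genotypes. All 8 skeletal muscle markers looked up were detected on all 10 muscle arrays, and 5 of 6 hepatocyte markers on all 10 liver arrays. Of the 8 skeletal muscle markers, 5 (*Acta1* and *Ckm* among them) were detected on 0 liver arrays and 2 on 1 array each, while *Actn3* was detected on all 10.

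Pyruvate dehydrogenase is a mitochondrial multienzyme complex that turns pyruvate into acetyl-CoA and so links glycolysis to the Krebs cycle. Its E1 component is switched off when the PDK kinases phosphorylate the alpha subunit, and on again when the PDP phosphatases remove that phosphate. In fasted liver and muscle *Pdk4* is known as the kinase gene that rises with fatty acid use, under PPAR, forkhead and glucocorticoid control, which spares glucose carbon. The state of the complex in a tissue is set by phosphorylation as well as by transcripts, and the arrays measured transcripts alone.

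The sequence just before the gene start is shown for 3 members on which the results turn: *Pdk4*, which differed most between genotypes in liver, and *Pdk1* and *Pdhb*, of which the *Pdk1* probe and 1 of the 2 *Pdhb* probes were called together with *Pdp1* in muscle. The sequences are from RefSeq on build GRCm38.p6, 250 bases each, written 5′ to 3′ on the strand of the gene. They lie at chr6:5496279-5496528 on the minus strand for *Pdk4*, at chr2:71872974-71873223 on the plus strand for *Pdk1*, of whose annotated starts this is the upstream one, and at chr14:8172993-8173242 on the minus strand for *Pdhb*. Capitals mark matches, on either strand, to a GC box (GGGCGG) or a CCAAT box (CCAAT).
*Pdk4*: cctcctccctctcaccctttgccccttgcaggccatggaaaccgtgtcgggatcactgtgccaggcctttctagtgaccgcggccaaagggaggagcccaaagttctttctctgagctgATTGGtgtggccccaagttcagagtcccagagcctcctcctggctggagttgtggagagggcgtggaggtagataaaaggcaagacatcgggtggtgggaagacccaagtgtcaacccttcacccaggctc
*Pdk1*: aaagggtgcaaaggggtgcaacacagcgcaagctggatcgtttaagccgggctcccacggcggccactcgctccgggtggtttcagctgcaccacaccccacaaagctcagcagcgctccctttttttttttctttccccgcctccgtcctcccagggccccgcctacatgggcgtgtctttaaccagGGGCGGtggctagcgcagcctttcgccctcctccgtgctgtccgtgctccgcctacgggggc
*Pdhb*: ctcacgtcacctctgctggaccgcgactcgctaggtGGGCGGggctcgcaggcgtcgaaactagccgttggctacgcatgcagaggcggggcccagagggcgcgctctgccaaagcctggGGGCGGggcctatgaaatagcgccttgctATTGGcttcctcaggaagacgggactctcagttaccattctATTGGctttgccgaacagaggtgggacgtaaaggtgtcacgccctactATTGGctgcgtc
The *Pdk4* window holds 1 CCAAT match, whose first base is 131 bases before the start, and 0 GC boxes. The *Pdk1* window holds 1 GC box at 62 bases, and the *Pdhb* window holds 2 GC boxes at 214 and 130 bases and 3 CCAAT matches at 101, 60 and 12 bases. G and C make up 58.8% of the *Pdk4* window, 64% of that of *Pdk1* and 61.6% of that of *Pdhb*, against a median of 52.4% over 32851 mouse promoters. Windows were found for 9 of the 10 genes, 11 windows in all, with *Pdp1* not among them. A GC box was present in 6 of the 9 genes and in 32.7% of all promoters, and a CCAAT box in 5 of the 9 and in 33.8% of all. A member gene counted when any of its windows held a match, whereas the shares over all promoters count each window by itself. The member counts and these shares are therefore not like for like. The E-box CACGTG was present in *Pdk2* and *Pdp2* and in 6.02% of all promoters. The nuclear receptor half-site AGGTCA (14% of all promoters), the forkhead sequence GTAAACA (3.17%) and the TATA box TATAAA (12.4%) were in 0 of the 9 genes. No 2 of these motifs overlapped in the 3 windows printed, and a match is a run of letters and not a shown binding site.

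Signals were corrected for background, given an offset of 16, quantile normalized and set on a log2 scale, within each tissue for the genotypes and over all 20 arrays for the comparison of tissues. A probe was kept in a tissue when its detection p was under 0.05 on at least 5 of 10 arrays. Between 11749 and 12493 probes were detected on a liver array and between 11626 and 12604 on a muscle array, and precision is limited by how many arrays there are. On the first principal component of liver, which held 45.9% of the variance, WT 3 and *Adck2*+/- 1 and 4 stood apart from the other arrays. In muscle WT 3 stood apart in its slow-fibre transcripts, 8 markers that summed to a normalized signal of 25175 there and to between 51954 and 65589 on every other muscle array. Values below are log2 normalized signals, and differences are *Adck2*+/- minus WT on that scale unless the tissues are compared. In bulk tissue, fewer cells of a type and less RNA per cell cannot be told apart.

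To place the members in the 2 tissues, the same probe was first compared between WT muscle and WT liver. All 9 genes tested were called, 7 higher in muscle and 2 higher in liver, at a Benjamini-Hochberg adjusted p under 0.05 from limma. Of all 9563 genes 78.2% were called (41.2% higher and 36.9% lower in muscle). A gene entered this test when its probe was kept in either tissue. *Pdk3* and *Pdp1* were kept in muscle alone, so the filter set their direction and their calls add no evidence. The subunits, *Pdk2*, *Pdk3*, *Pdk4* and *Pdp1* stood on the muscle side, whereas *Pdk1* and *Pdp2* stood on the liver side.

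Of the kinases, *Pdk4* showed the largest difference. Its signal was 8.55 ± 0.49 (SD, n = 5) in WT liver and 13.67 ± 0.62 (SD, n = 5) in WT muscle, 35.0-fold higher in muscle (adjusted p = 1.33e-12 from limma). *Pdk2*, the most widely expressed kinase of the family, was 2.49-fold higher in muscle, at 10.64 ± 0.11 against 9.32 ± 0.11 (adjusted p = 1.60e-09 from limma). *Pdk1*, known as a hypoxia-responsive kinase, ran the other way and was 2.35-fold higher in liver, at 10.19 ± 0.37 against 8.96 ± 0.24 (adjusted p = 8.58e-06 from limma). *Pdk3* was detected on 5 of 5 WT muscle arrays and on 0 of 5 WT liver arrays. Set against the dimmest detected probes of the liver arrays it was at least 1.39-fold higher in muscle, where its mean of 5.85 was still close to background.

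The 2 phosphatase genes were split between the tissues. *Pdp1*, which encodes the calcium-sensitive phosphatase that reactivates the complex, reached 9.97 ± 0.21 (SD, n = 5) in WT muscle and was not above background on any of the 5 WT liver arrays, which made it at least 24.1-fold higher in muscle. *Pdp2*, the calcium-insensitive form that is known to respond to insulin, was 5.96-fold higher in liver by its brighter probe (11.68 ± 0.23 in liver, 9.10 ± 0.37 in muscle, adjusted p = 7.61e-11 from limma). Its second probe gave 6.59-fold in the same direction.

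All 3 measured subunit genes were higher in muscle, where the complex is abundant. *Pdha1*, the phosphorylated E1 alpha subunit, was 4.67-fold higher and *Dlat*, the E2 acetyltransferase core, 9.47-fold higher. *Pdhb*, the E1 beta subunit, was 12.4-fold higher by the probe that was brightest over all arrays (ILMN_3041839), but its other probe (ILMN_3116570) gave 1.63-fold, with overlapping WT values in the 2 tissues. *Pdhx*, which anchors the E3 subunit to the core, was not above background on any of the 20 arrays, so that its single probe says nothing about its level.

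**Figure D1:**
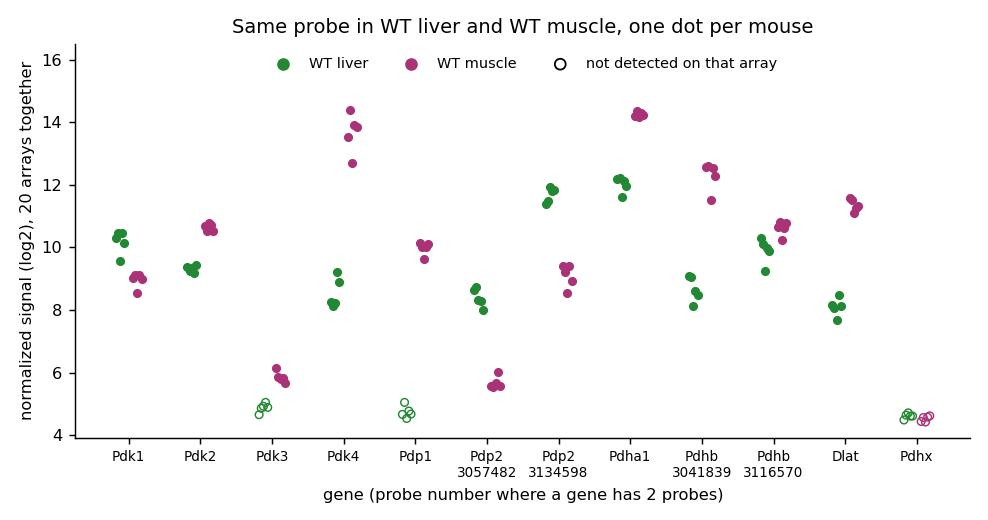
Log2 normalized signal of each of the 12 member probes in 5 WT liver (green) and 5 WT muscle (purple) samples, normalized over all 20 arrays, with open circles where the probe was not detected. The values of *Pdk4*, *Pdp1*, *Pdha1*, *Pdk2* and *Dlat* lie wholly higher in muscle and those of *Pdk1* and *Pdp2* wholly higher in liver, while the 2 *Pdhb* probes differ in the size of the gap.

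Next, the genotypes were compared in muscle. *Pdp1* was higher in *Adck2*+/- muscle and was the 1 member called among 9 measured genes, where 1.89% of 8424 genes were called (1.23% higher). *Pdk1* and *Pdhb* were higher in every *Adck2*+/- sample than in any WT sample without passing the threshold over genes. Of the 9 members 8 lay above 0, where 47.8% of all genes did, and the median member difference was 0.38 against −0.01 over all genes. At an unadjusted p under 0.05 there were 5 of 9 members, where 22.3% of all genes were counted. Because the members were chosen with earlier results of these data known, these shares describe them and do not test them as a set.

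For *Pdp1* the WT muscle samples 1 to 5 measured 9.94, 9.83, 9.46, 9.83 and 9.93, and the *Adck2*+/- samples 10.38, 10.51, 10.57, 10.56 and 10.10. The lowest *Adck2*+/- value, that of sample 5, thus stood above the highest WT value, that of sample 1. The difference was 0.63 (standard error 0.13, 95% confidence interval 0.35 to 0.91), which is 1.55-fold, with an adjusted p of 0.0379 from limma and rank 88 of all genes. WT 3 was the lowest sample, and without it the difference was 0.54 (adjusted p = 0.0637). The call was kept without *Adck2*+/- 5 (adjusted p = 0.0174) and lost without any other single array, with adjusted p-values from 0.0532 to 0.0980. It was also lost under median scaling (adjusted p = 0.0957 from limma), with no filter on dim probes (0.0524), with the replicate number as a block (0.114) and, after adjustment, with the paired test of the methods (0.281).

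*Pdk1* encodes a kinase that acts against the phosphatases, and its values moved with those of *Pdp1*. They were 8.86, 8.97, 8.39, 8.95 and 8.83 in the WT samples and 9.35, 9.32, 9.42, 9.44 and 9.05 in the *Adck2*+/- samples. WT 3 was again lowest and *Adck2*+/- 5 lowest of its group, and the groups did not overlap. The difference was 0.52 (standard error 0.13), or 1.43-fold, with an adjusted p of 0.0679 over genes from limma and of 0.0450 when every kept probe was tested by itself.

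*Pdhb* was measured by both of its probes in muscle. The brighter one read 12.30, 12.32, 11.30, 12.27 and 12.03 in WT and 12.91, 12.69, 12.86, 12.51 and 12.39 in *Adck2*+/- samples, a difference of 0.63 (standard error 0.20, adjusted p = 0.102 from limma). The other read 10.45, 10.63, 10.05, 10.42 and 10.58 in WT and 11.11, 11.32, 11.09, 10.71 and 10.75 in *Adck2*+/- samples, a difference of 0.57 (adjusted p over probes = 0.0484 from limma). Both probes therefore separated the genotypes, with WT 3 lowest on both, and they correlated at r = 0.89 over the 10 arrays. Without WT 3 the difference of the brighter probe was 0.44 in place of 0.63.

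Tested probe by probe, 3 of the 11 kept member probes were called in muscle, 27.3%, where 5.54% of 12115 probes were called. They were the *Pdp1* probe (adjusted p = 0.0202 from limma), the *Pdk1* probe and the dimmer *Pdhb* probe. Without WT 3 the count of called member probes was 1, and leaving out each array in turn gave 0 to 3. At the level of genes, the *Adck2*+/- values lay wholly above the WT values for 3 of 9 members (33.3%), where this held for 3.22% of all genes. The choice of members with earlier results known limits these shares as well.

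**Figure D2:**
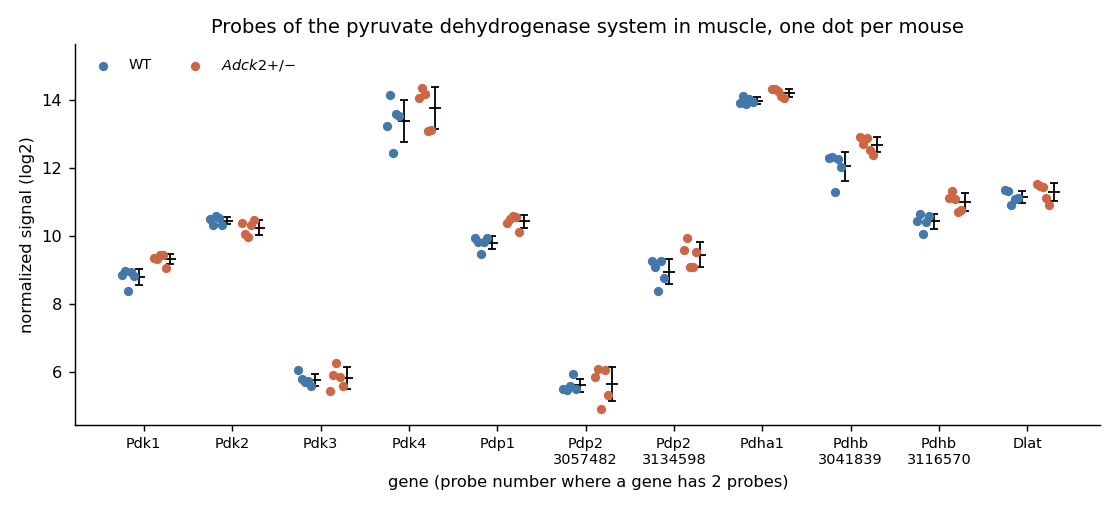
Log2 normalized signal of the 11 member probes kept in muscle, for 5 WT (blue) and 5 *Adck2*+/- (orange) samples, with the mean and SD of each group as black bars. The 2 groups do not overlap for *Pdk1*, *Pdp1* and both *Pdhb* probes, and they overlap for the other 7.

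The remaining muscle members did not pass the test. *Pdha1* was 0.24 higher (standard error 0.10, adjusted p = 0.179), with 3 of 5 *Adck2*+/- samples above every WT sample, and *Dlat* was 0.14 higher (adjusted p = 0.591 from limma). *Pdp2* differed by 0.50 (standard error 0.21, adjusted p = 0.187) by its brighter probe and by 0.04 by the dimmer one, which was detected on 4 of 5 *Adck2*+/- arrays. The dimmer probe sat between 4.93 and 6.08, near background, and the 2 correlated at r = 0.34.

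The other kinases of muscle differed less than *Pdk1*, and the genotypes overlapped for each. *Pdk4* measured 13.21, 14.13, 12.43, 13.57 and 13.52 in WT and 14.06, 14.35, 14.17, 13.09 and 13.12 in *Adck2*+/- muscle. Here *Adck2*+/- 2 and 3 were above every WT sample and *Adck2*+/- 1, 4 and 5 lay within the WT range, so that the groups overlapped. The difference was 0.38 with a standard error of 0.33 and a 95% confidence interval from −0.34 to 1.10 (adjusted p = 0.524 from limma), and it was 0.15 without WT 3. *Pdk2* was the 1 measured member below 0, at −0.21 (95% confidence interval −0.47 to 0.05), with 3 of 5 *Adck2*+/- samples below every WT sample. *Pdk3* differed by 0.04 (−0.31 to 0.38).

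WT 3 was the lowest WT sample for 8 of the 11 kept muscle probes, and *Adck2*+/- 5 the lowest *Adck2*+/- sample for 5 of them. WT 3 was also the array with the low slow-fibre sum given above. Of 6 hepatocyte markers, 3 were detected on most muscle arrays. The *Alb* probe was detected on 0 of 10, but it was dim in WT liver too (6.35, where *Apoa1* was 14.81). The sum of all 6 was 2738 in WT 1 and 5776 in *Adck2*+/- 4 and between 178 and 1115 on the other muscle arrays. Without both of those arrays *Pdp1* differed by 0.63 with an adjusted p of 0.104. The sum of the adipocyte markers was 5310 in *Adck2*+/- 5, between 546 and 1180 in the other *Adck2*+/- samples and between 279.5 and 2705 in WT. The blood cell markers summed to between 3915 and 5199 in *Adck2*+/- 1, 2 and 3 and to between 6597 and 14727 on the other 7 arrays. These 3 *Adck2*+/- arrays also stood apart on the first principal component of muscle, which held 35.9% of the variance. The part of any of these in the *Pdp1*, *Pdk1* and *Pdhb* differences was not tested.

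Over the 10 muscle arrays *Pdp1* was most like *Rps6ka5* (r = 0.99), *Ppp2r3c* (0.97), *Nae1* (0.97), *Pex7* (0.97) and *Gpam* (0.96) among 8423 other genes. *Pdk1* came next, at rank 6 (r = 0.96), and *Pdhb* followed at rank 163 (0.87). *Pdk2* ran against *Pdp1* (r = −0.76), and *Pdk4* had r = 0.55. After the genotype means were taken out, *Pdk1* kept an r of 0.88 with *Pdp1* and *Pdhb* one of 0.73. *Rps6ka5*, *Ppp2r3c*, *Nae1*, *Pex7* and *Gpam* then had 0.94, 0.89, 0.89, 0.94 and 0.84. Of these, *Rps6ka5* (0.77), *Ppp2r3c* (0.61) and *Gpam* (1.16) also differed between genotypes in muscle at an adjusted p under 0.05 from limma. These values share arrays and normalization and describe 10 samples only, and 1.19% of genes had an r over 0.9 with *Pdp1*.

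In liver, 0 of 7 measured members were called, where 0.0118% of 8484 genes (1 gene) were called. *Pdk4* stood nearest to the threshold, and the others differed by at most 0.42 on the log2 scale in either direction. At an unadjusted p under 0.05 *Pdk4* and *Pdhb* were counted, 2 of 7, where 7.04% of all genes were. Of the 7 members 4 lay above 0 (52.8% of all genes), with a median difference of 0.07 against 0.01 over all genes.

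For *Pdk4* the WT liver samples 1 to 5 measured 8.40, 8.25, 8.36, 9.36 and 9.05, and the *Adck2*+/- samples 9.37, 10.03, 10.60, 9.59 and 9.58. The groups touched without overlapping: the lowest *Adck2*+/- sample, 1, was 9.37 and the highest WT sample, 4, was 9.36. The difference was 1.15 (standard error 0.27, 95% confidence interval 0.55 to 1.75), which is 2.22-fold with an interval from 1.47-fold to 3.36-fold. Its unadjusted p was 0.00132, rank 28 of 8484 genes, and its adjusted p was 0.399 from limma. It ranged from 0.96, without *Adck2*+/- 3, to 1.32, without WT 4, when single arrays were left out. Without WT 3 and *Adck2*+/- 1 and 4, which stood apart on the first component, it was 1.30 (adjusted p = 0.282).

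*Adck2*+/- values lay wholly above WT values for 1 of the 7 liver members, *Pdk4*, where this held for 0.695% of all genes. The raw signal of its probe ran from 281.3 to 2338 over the liver arrays and from 5649 to 24479 over the muscle arrays.

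**Figure D3:**
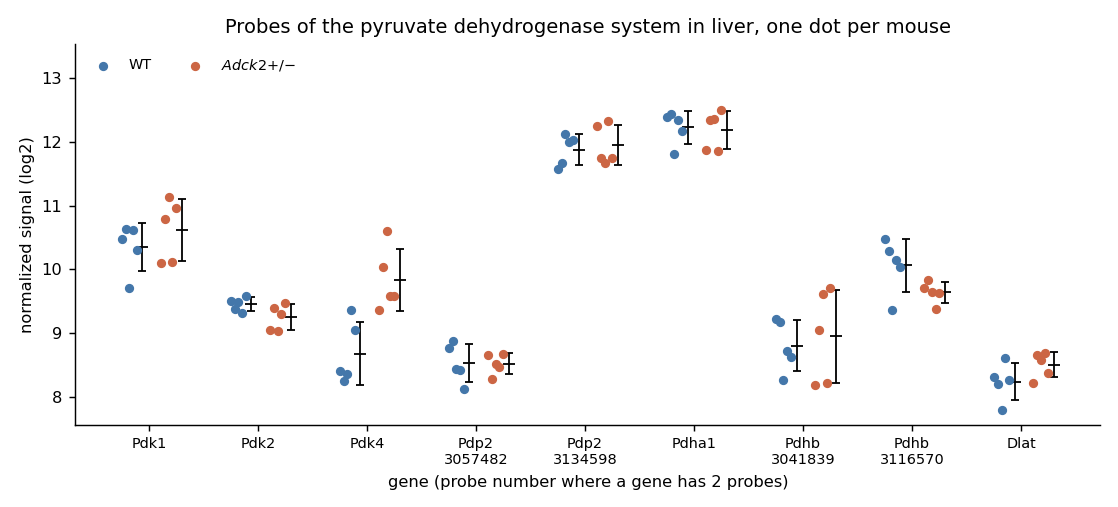
Log2 normalized signal of the 9 member probes kept in liver, for 5 WT (blue) and 5 *Adck2*+/- (orange) samples, with the mean and SD of each group as black bars. *Pdk4* is the 1 probe whose groups do not overlap, by 9.37 against 9.36, and the 2 *Pdhb* probes differ in opposite directions.

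The other liver kinases did not pass the test. *Pdk1* differed by 0.27 with an interval from −0.26 to 0.80 (adjusted p = 0.931 from limma). It differed by 0.11 without WT 3, by 0.14 without *Adck2*+/- 3, and by 0.45 either under median scaling or without the 3 arrays that stood apart (adjusted p = 0.324 from limma for the latter). *Pdk2* differed by −0.20 with an interval from −0.46 to 0.06 (adjusted p = 0.810 from limma). *Pdk3* was detected on 0 WT and 2 *Adck2*+/- arrays and was not kept. *Pdp1* and *Pdhx* were detected on none of the 10 liver arrays, which leaves the phosphatase side of liver to *Pdp2*, at 0.07 and −0.01 by its 2 probes.

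*Pdhb* in liver depended on the probe. By the brighter ILMN_3116570 the WT samples read 10.48, 10.28, 9.37, 10.14 and 10.04 and the *Adck2*+/- samples 9.72, 9.84, 9.65, 9.39 and 9.63, a difference of −0.42 (standard error 0.19, adjusted p = 0.702 from limma). WT 3 was the lowest of all 10 and the other WT samples stood above every *Adck2*+/- sample. By ILMN_3041839 the difference was 0.15 (adjusted p over probes = 0.999), and the probes correlated at r = 0.33 over the liver arrays. *Pdha1* (−0.04) and *Dlat* (0.27, adjusted p = 0.810) did not pass the test either. *Pdha1* was above 0 under median scaling (0.11), which by itself moved the median of all genes from 0.01 to 0.16.

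Over the 10 liver arrays *Pdk4* was most like *Chrna4* (r = 0.96), *Rdh9* (0.95), *Serpina7* (0.91), *St6gal1* (0.90) and *Zfp213* (0.89). Among the members *Dlat* (r = 0.73) and *Pdk1* (0.57) were nearest and *Pdk2* (−0.58) farthest. After the genotype means were taken out, *Dlat* had an r of 0.63 and *Pdk1* one of 0.54. *Pdk2* then stood at −0.24, and *Pdhb* moved from −0.42 to 0.11. The genes named first then ranged from 0.69 (*Zfp213*) to 0.96 (*Serpina7*). These correlations likewise describe 10 arrays that share a normalization.

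To ask whether a member responded differently in the 2 tissues, the genotype difference in muscle was compared with that in liver in a fit of all 20 arrays, treated as independent. Of the 7 members measured in both tissues 0 were called, where 0.0409% of 7339 genes were called, and at an unadjusted p under 0.05 there were also 0 members, where 14.8% of all genes were counted. For *Pdk4* the muscle difference minus the liver difference was −0.80 (standard error 0.44, 95% confidence interval −1.71 to 0.12, adjusted p = 0.420 from limma). The larger *Pdk4* value in liver is thus not shown to differ from that in muscle. For *Pdp2* the value was 0.44 (−0.13 to 1.01) and for *Pdhb*, by ILMN_3041839, 0.51 (−0.32 to 1.34), and *Pdk2* came closest to 0, at −0.01 (−0.35 to 0.34). By the other *Pdhb* probe, ILMN_3116570, which was tried after its values were known, the value was 0.98 (0.47 to 1.49) with an unadjusted p of 0.000735 and an adjusted p of 0.136 over 10308 probes from limma. *Pdp1* could not enter this test because liver gave no signal for it, so that *Pdk4* in liver (2.22-fold, not called) and *Pdp1* in muscle (1.55-fold, called) stand side by side as separate measurements.

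**Figure D4:**
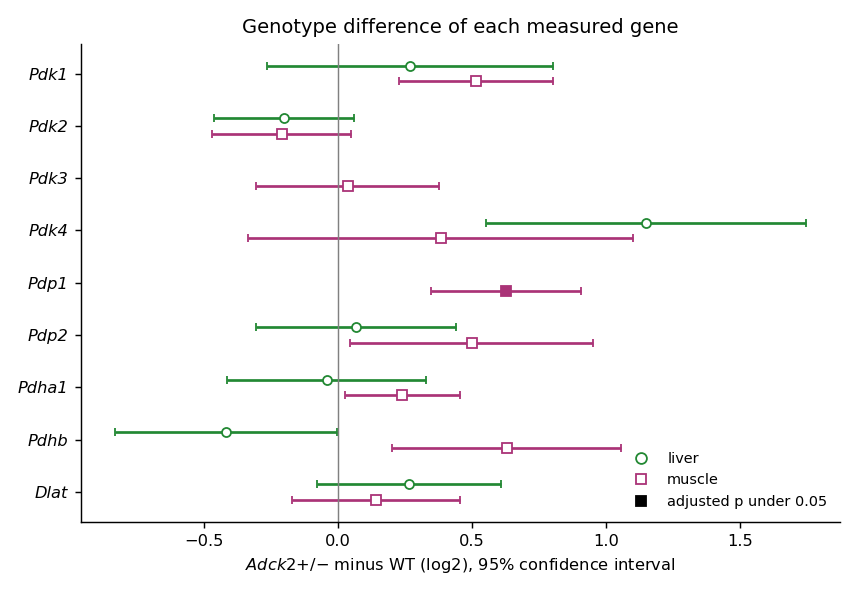
Log2 difference, *Adck2*+/- minus WT, of each member gene measured in liver (circles) or muscle (squares), with 95% confidence intervals from limma and 5 mice per group. For *Pdhb* the probes differ, ILMN_3116570 in liver and ILMN_3041839 in muscle, and the latter gave 0.15 in liver. *Pdp1* in muscle (0.63) is the 1 filled symbol, at an adjusted p under 0.05, and *Pdk4* in liver lies farthest from 0 (1.15) with the widest liver interval.

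**Figure D5:**
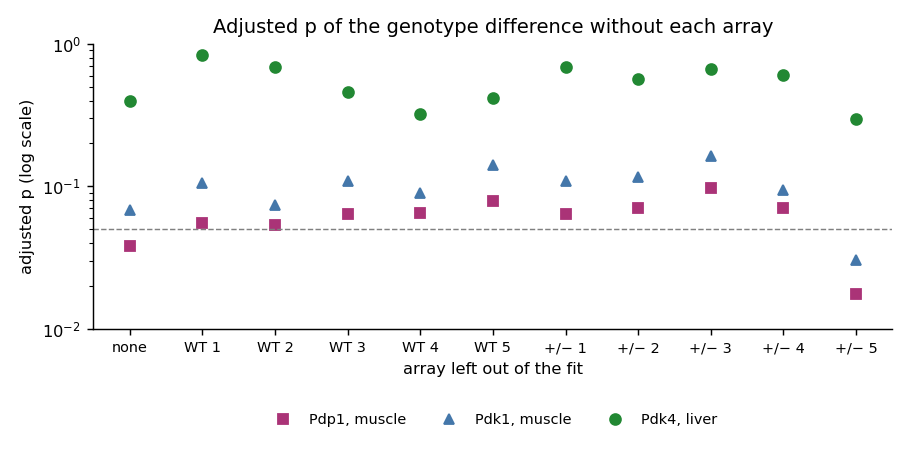
Adjusted p from limma, on a log axis, of the genotype difference of *Pdp1* and *Pdk1* in muscle and *Pdk4* in liver, with all arrays and without each array in turn, and the 0.05 threshold as a dashed line. *Pdp1* stays under the line with all arrays (0.0379) and without *Adck2*+/- 5 (0.0174), *Pdk1* falls under it without *Adck2*+/- 5 (0.0302), and *Pdk4* never does (0.296 to 0.842).

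Genes around the complex were read from 7 lists. *Dld*, the E3 subunit shared with the sister dehydrogenases, was −0.41 in liver (adjusted p = 0.758 from limma) and 0.40 in muscle (adjusted p = 0.249). Among the sister complexes and their regulators 0 of 10 genes were called in liver, with *Ppm1k*, the phosphatase of the branched-chain dehydrogenase, at −0.36 and *Gldc* of the glycine cleavage system at 0.26. In muscle 0 of 9 were called, with *Ogdh* at −0.20 and *Dbt* at 0.22. Of the genes that supply lipoate and thiamine, cofactors of the complex, 0 of 9 were called in each tissue. The smallest p-values there belonged to *Lias* (0.23), *Lipt1* (0.29) and *Nfu1* (−0.19) in liver and to the iron-sulphur assembly genes *Iba57* (0.47), *Glrx5* (−0.37) and *Bola3* (−0.51) in muscle.

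Genes that make or use pyruvate and acetyl-CoA also gave 0 calls, among 10 measured in liver and 9 in muscle. *Slc16a3*, a lactate exporter, was −0.31 in liver by ILMN_3163569 and −0.74 in muscle by ILMN_3149256 (standard error 0.23, adjusted p = 0.102 from limma). These are different probes, and the liver means of 5.72 in WT and 5.41 in *Adck2*+/- samples lay close to background. *Slc16a3* was followed by *Acly* (0.31) and *Cs* (0.17) in liver and by *Gpt* (0.23) and *Pkm* (−0.18) in muscle.

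PPAR and fasting targets share regulators with *Pdk4*. In liver 1 of 16 was higher at the threshold, *Acot3* (1.75), and no gene was called in liver when any 1 of 8 of the 10 arrays was left out. At an unadjusted p under 0.05 from limma 7 of the 16 were counted, 5 higher and 2 lower, where 7.04% of all genes were. In muscle 0 of 13 were called, and *Acadm*, a medium-chain fatty acid dehydrogenase, was nearest at 0.47 (adjusted p = 0.0751), followed by *Crat* (−0.35) and *Ucp3* (0.62). The list medians were 0.06 in liver and 0.23 in muscle.

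Of the known regulators of *Pdk4* transcription, 1 of 12 was called in muscle, where 1.89% of 8424 genes were. It was the glucocorticoid receptor *Nr3c1*, with a difference of 0.90 (standard error 0.17, adjusted p = 0.0281 by limma). Its WT mean of 5.98 lay near that of *Pdk3* (5.78), close to background. In liver 0 of 12 were called, with *Cebpb* at −0.48, *Pparg* at −0.31 and *Sirt1* at −0.20. Of the insulin-repressed and gluconeogenic genes 0 of 6 were called in liver, with *Pck1* at −1.64 (adjusted p = 0.341), *Igfbp1* at −1.05 and *G6pc* at −0.34. In muscle 0 of 3 were called (*Irs2* 0.26, *G6pc* −0.22 and *Ppargc1a* 0.10). Glucocorticoid and clock targets gave 0 calls of 10 in liver (*Per2* 0.37, *Nr1d2* −0.85, *Dbp* −0.89) and 0 of 11 in muscle (*Ciart* 1.19, *Per1* −0.52, *Fkbp5* −0.35). The lists without a call were also counted at an unadjusted p under 0.05 from limma. In liver the count was 2 of 10 for the sister complexes, 2 of 12 for the regulators and 1 of 6 for the insulin-repressed genes. It was 1 of 10 for the clock list and 0 for cofactors and pyruvate, where 7.04% of all liver genes were counted. In muscle it was 4 of 9 for the cofactors, 2 of 13 for the PPAR targets and 1 of 9 for pyruvate. It was 0 for the other 3, where 22.3% of all muscle genes were counted.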

How the data were processed

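The data were 20 Illumina bead arrays of liver and muscle RNA, grouped by genotype and tissue as labelled. The intensity values are mean probe signals as deposited by the authors, not normalized between arrays; how their background was treated is not given in the sources used here. The detection p-values were deposited beside them. A second deposited value table, in which 2165 of 25697 entries differ from the main table, served as an alternative. Its 12 member probes were equal to the main table. Gene names came from the platform annotation, which left 1719 probes unnamed.

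Values were computed with limma 3.58.1 (neqc, lmFit and eBayes) in R 4.3.3, and plotted with matplotlib 3.10.9 in Python 3.11.15. The brightest kept probe stood for its gene, the Benjamini-Hochberg adjustment ran over all genes or probes of a comparison, and a bound was taken from the dimmest detected probes. Simulated log2 gene values served to test the genotype fit and the fit of its difference between tissues. Background correction, normalization, the probe filter and the WT tissue comparison were not tested in this way. Replicate numbers are shared between the genotypes, but samples of equal number did not deviate together, so no block was used. The member genes, gene lists and tests were chosen with earlier results of these data known. Named genes were the members, *Dld*, per list the called genes or else the 3 with the smallest p, and the 5 genes most correlated with *Pdk4* in liver and *Pdp1* in muscle. Nothing shows whether liver and muscle of equal number came from 1 mouse.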

Additional observations from a re-analysis of the deposited data

Results flagged for a closer look

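In the group of 5 WT muscle samples, 3 member probes had sample 3 far below the other 4. For *Pdk1* WT 3 measured 8.39 and the next sample 8.83, for *Pdp1* 9.464 and the next 9.83, and for the brighter *Pdhb* probe (ILMN_3041839) 11.3 and the next 12.03. The dimmer *Pdp2* probe (ILMN_3057482) had WT 4 far above the others, at 5.945 against 5.59, close to background. The distance was judged by Dixon's ratio, which chance exceeds in about 1 of 20 groups, and the 20 kept probes gave 40 groups that share arrays.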

How the results depend on the processing

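*Pdk4* in liver stayed between 0.90 and 1.30 under 14 alternatives and passed a threshold in 1, the methods' t-test, paired by number, without adjustment (1.149; 1 member gene and 1 member probe counted, with 478 genes in all). *Pdp1* in muscle stayed between 0.56 and 0.72 and lost its call under median scaling (0.5657, adjusted p = 0.0957), with no filter (0.6279, 0.0524), with the methods' t-test after adjustment (0.6279, 0.281) and without WT 1 and *Adck2*+/- 4 (0.6292, 0.104), the last setting chosen after the data were seen. With the replicate number as a block it also lost its call (0.6279, 0.114), and 0 member genes and 0 member probes were called. In each tissue 1 of 5 same-numbered pairs correlated above 0.1. The *Adck2*+/- sample of the same number was the best match for 0 of 5 WT samples in liver and 1 of 5 in muscle. The numbers thus do not show a pairing. Over all muscle genes the block left 0 of 159 calls, and it changed no other gene-level call of the members. With single arrays left out *Pdp1* ranged from 0.5438 to 0.7092.

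Member genes called in muscle (1) became 0 under median scaling, no filter, the adjusted t-test and without WT 1 and *Adck2*+/- 4, 2 without background correction, with array weights, with the value table and without WT 2 and *Adck2*+/- 5, and 3 under the unadjusted t-test; leaving out single arrays gave 0 to 2. Member probes called (3) became 0 under median scaling, the adjusted t-test and without WT 1 and *Adck2*+/- 4, and 1 with no filter; leaving out single arrays gave 0 to 3. Over all muscle genes 159 calls (65.4% higher) became 310 (25.5% higher) under median scaling, 734 (32.4% higher) without WT 2 and *Adck2*+/- 5, 354 (49.4% higher) with array weights, 315 with the mean of probes, 70 with no filter, 18 without WT 1 and *Adck2*+/- 4, and 0 and 1413 with the t-test after and before adjustment. In liver 1 call became 3 under median scaling, 2 with array weights and 0 with no filter, with the adjusted t-test or without the 3 arrays that stood apart. With single arrays left out, muscle calls ran from 14 (without WT 5, 92.9% higher) to 689 (without *Adck2*+/- 5, 31.9% higher) and liver calls from 0 to 2. The cause of these shifts was not tested.

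Differences near 0 changed sign: *Pdp2* in liver with array weights (−0.01317), without WT 3, *Adck2*+/- 1 and *Adck2*+/- 4 (−0.09734) and over single arrays (−0.02674 to 0.1386); *Pdha1* in liver under median scaling (0.1145), without those 3 arrays (0.06753) and over single arrays (−0.1449 to 0.04218); *Pdk3* in muscle (−0.07594 to 0.1295); and the muscle-minus-liver effects of *Pdk2* (−0.06515 to 0.05999) and *Dlat* (−0.2008 to 0.0008023) over single arrays. The tissue calls stayed at 9 under 10 alternatives and with each WT array left out. Probes near background (*Pdk3*, the dimmer *Pdp2* probe) and the undetected *Pdhx* limit what these arrays can show.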
